A study of Mus musculus with 24 samples.

Results

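The 9 genes described here encode the proteins that write, copy, read and remove methyl groups on cytosine: Dnmt1, Dnmt3a, Dnmt3b and Uhrf1 on the writing side, Mbd2 as a reader, and Tet1, Tet2, Tet3 and Tdg on the removing side. They were chosen by gene name, by a rule that used no measured value, but with earlier results of these data known. The arrays carry 22 probes for them among 39429 probes that are not controls. All 9 were among the 15784 genes tested, and 15 of their 22 probes were well above background on at least 5 of 24 arrays. Blood RNA of male C57BL/6J mice was read on one-colour Agilent arrays, all from blood drawn 24 h after x-ray exposure. Gadd45aWT mice gave 5 unirradiated (0 Gy) and 5 irradiated (7 Gy) samples, and Gadd45aKO mice gave 5 and 9 of these. The labels give no age and no description of the Gadd45a allele, and they tie no array to a named animal, so the p-values below measure only the spread between these samples. The study compared how the blood of both genotypes responds to radiation, and Gadd45a, a stress-induced nuclear protein, has been reported to take part in active DNA demethylation.

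As background, Dnmt1 copies methylation onto the new strand after DNA replication, and Uhrf1 recognises hemimethylated DNA and brings Dnmt1 to it. Dnmt3a and Dnmt3b methylate sites that carried no methyl group, and Mbd2 binds methylated CpG and recruits repressor complexes. The Tet enzymes oxidise 5-methylcytosine, and Tdg cuts out the further oxidised bases so that base excision repair can restore cytosine; Tet2 and Dnmt3a are both well known as regulators of blood stem cells.

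A level is given as the log2 of the background-subtracted spot intensity minus the 75th percentile of its own array, so a level of a given gene can be compared between arrays, and levels of different genes cannot be compared with each other. Gadd45a itself was measured at 0.67 ± 0.24 (SD, n = 5) in WT at 0 Gy and at 0.52 ± 0.16 (SD, n = 4) in the Gadd45aKO arrays at 0 Gy, a difference of -0.15 ± 0.21 (SE) with adjusted p = 0.853 in limma. At 7 Gy it stood 2.31-fold higher in the Gadd45aKO arrays than in WT (adjusted p = 4.84e-05). Whether its probe lies in the deleted part is not given in the sources used here, and the Gadd45aKO arrays are called KO-labelled throughout. KO-labelled 0 Gy replicates 1 and 4 differed by less than the spread between repeat spots and were averaged, which left 4 samples in that group and 23 in all. Slides 1 to 5 each held 1 array of every group and slide 6 held only KO-labelled 7 Gy replicates 6 to 9. The mean level of the hepatocyte markers lay between -6.87 and -6.60 in unirradiated WT samples, and WT 7 Gy replicates 3 to 5 stood apart, the highest at 1.55, where replicates 1 and 2 of that group both read -2.21.

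In WT, 1 of 9 was lower at 7 Gy, Uhrf1, and 0 were higher, where 23.6% of all genes tested passed the same threshold (10% higher and 13.6% lower). A gene is counted as changed here when its Benjamini-Hochberg adjusted p over all 15784 genes was under 0.05 in limma. In KO-labelled blood 5 of 9 were lower at 7 Gy (Dnmt1, Dnmt3a, Uhrf1, Tet2 and Tdg) and 0 were higher, against 46.9% of all genes called, 12.3% higher and 34.6% lower. All genes together were thus also called more often in KO-labelled blood, and the contrast between 1 and 5 of 9 was not tested. The median of the 9 log2 differences was -0.32 in WT, where that of all genes was -0.05, and -0.96 in KO-labelled blood, where that of all genes was -0.26. The groups did not overlap for 2 of 9 genes in WT (28.5% of all genes) and for 2 of 9 in KO-labelled blood (24.6% of all genes).

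In the fit without a slide block the response to 7 Gy differed between the genotypes for 2 of 9 genes, Tet2 and Tdg, both with the stronger fall in KO-labelled blood, and the background was 15.2% of all genes called, 3.16% toward a higher and 12% toward a lower response. The median of this difference was -0.03 over the 9 genes and -0.26 over all genes. At 7 Gy the KO-labelled arrays differed from WT for 3 of 9 genes, with Uhrf1 higher and Tet2 and Tdg lower, against 22.5% of all genes (4.57% higher, 17.9% lower). These 3 genes were also the ones whose groups did not overlap at 7 Gy, which held for 6.04% of all genes. At 0 Gy 0 of 9 genes differed between the genotypes, where 0.291% of all genes did (0.209% higher and 0.0824% lower in KO-labelled blood), and none of the 9 had an unadjusted limma p under 0.05 either, where 1471 of 15784 genes did. With the slide as a block and every array counted separately, 5 of 9 genes were called for the difference of the responses (Dnmt3a, Uhrf1, Tet1, Tet2 and Tdg), and 5 of 9, the same genes, between the genotypes at 7 Gy. That block takes the KO-labelled 7 Gy arrays of slide 6 out of these differences, since slide 6 holds no other group. Counting every array separately with no block gave 3 of 9 in both comparisons, with Uhrf1 added to the difference. The share of all genes called was not counted under these 2 settings, so their counts stand without a background. The comparisons share groups of arrays, so their values for one gene are not independent.

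These counts depend on how the background was treated, since the median signal was 20.9 to 86.9 intensity units for 8 of the 9 genes and 787.5 for Mbd2. With normexp background correction, which adds 50 to every signal before scaling, 0 of 9 genes were called in any comparison, 4.74% of all genes were called in WT and 8.74% in KO-labelled blood, and the median of all genes moved to 0.60 and 0.46. Under that setting the differences of Uhrf1 in WT (0.40) and of Dnmt3a (0.40), Tdg (0.29), Uhrf1 (0.21) and Tet2 (0.08) in KO-labelled blood were positive; each lay below the median of all genes of its comparison. Quantile normalization turned no called difference and moved the median of all genes in KO-labelled blood to -0.07. It lost the calls of Dnmt3a in KO-labelled blood (adjusted p = 0.165) and of Tdg at 7 Gy (adjusted p = 0.0721). For the difference of the responses it lost Tet2 (adjusted p = 0.0595) and Tdg (adjusted p = 0.229) and called Uhrf1 (adjusted p = 0.0283), where 6.93% of all genes were called.

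**Figure D1:**
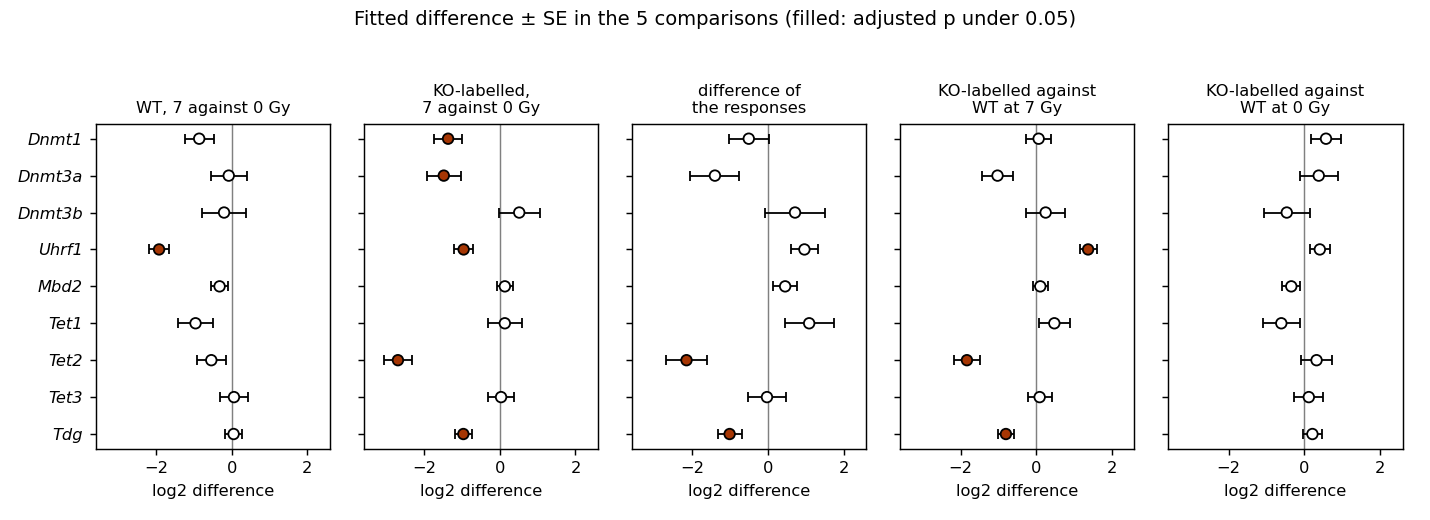
Fitted log2 difference (horizontal axis, points) with its standard error (bars) for each of the 9 genes in the 5 comparisons; filled points have a limma adjusted p under 0.05. Uhrf1 is the one filled point in WT, 5 genes are filled in KO-labelled blood, and no gene is filled in the comparison at 0 Gy.

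Uhrf1 and Dnmt1, the pair that maintains methylation through cell division, are shown first, with the sequence before their transcription starts. RefSeq promoter windows, 250 bases before to 50 bases after a start on GRCm38.p6, were found for 8 of the 9 genes (13 windows), and they were searched on both strands for the E2F-type letters TTTCCCGC, TTTGGCGC, TTTCGCGC and TTTGCCGC. The window of Dnmt1 at chr9:20952574-20952873 (minus strand) held 2 of them, read as GCGCGAAA at 219 bases upstream and TTTGGCGC at 33 bases downstream of the start, which do not overlap, and that of Uhrf1 at chr17:56304063-56304362 (plus strand) held 1, TTTCGCGC at 185 bases upstream. None of the other windows searched held one, and 2.26% of 32851 promoter windows of this length did. The matched letters are in capitals, and the window of Tet2 at chr3:133544341-133544640 (minus strand), the gene with the strongest fall in KO-labelled blood, is printed beside them with no match.
Dnmt1: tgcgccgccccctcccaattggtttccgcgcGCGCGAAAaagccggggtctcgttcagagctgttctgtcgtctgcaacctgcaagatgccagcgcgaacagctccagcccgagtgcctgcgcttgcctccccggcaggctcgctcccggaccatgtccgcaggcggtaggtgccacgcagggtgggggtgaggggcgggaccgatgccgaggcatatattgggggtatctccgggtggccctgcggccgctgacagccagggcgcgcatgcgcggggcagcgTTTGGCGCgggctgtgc
Uhrf1: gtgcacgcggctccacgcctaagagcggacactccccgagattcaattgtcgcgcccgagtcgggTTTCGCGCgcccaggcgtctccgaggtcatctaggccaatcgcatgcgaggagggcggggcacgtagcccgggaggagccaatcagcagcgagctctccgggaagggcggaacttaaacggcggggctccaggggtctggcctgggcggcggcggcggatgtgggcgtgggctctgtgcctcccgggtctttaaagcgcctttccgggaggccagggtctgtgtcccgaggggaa
Tet2: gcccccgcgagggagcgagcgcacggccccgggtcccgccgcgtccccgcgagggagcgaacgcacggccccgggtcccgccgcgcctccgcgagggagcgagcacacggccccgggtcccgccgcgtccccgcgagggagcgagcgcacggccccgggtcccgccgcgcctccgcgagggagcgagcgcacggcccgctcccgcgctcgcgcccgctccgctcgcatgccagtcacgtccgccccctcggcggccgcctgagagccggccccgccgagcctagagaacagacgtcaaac
These windows are rich in CpG, the target of the enzymes themselves: Dnmt1 and Uhrf1 each hold 33 CpG and Tet2 holds 57, where the median over all windows is 7. A match is a stretch of letters and was not tested as a binding site.

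Uhrf1 fell in the blood of both genotypes, with the larger fitted fall in WT (adjusted p of the difference = 0.0665, not called). Its probe lies at chr17:56462770-56462829 (mm9, plus strand). In WT at 0 Gy the 5 arrays read -4.90, -4.62, -4.72, -5.05 and -4.73, and at 7 Gy they read -6.34, -6.59, -7.20, -6.63 and -6.88. Every WT array at 7 Gy lay below every WT array at 0 Gy, and none of the 5 was well above background. The fitted fall was 3.79-fold (log2 -1.92 ± 0.26 SE, adjusted p = 5.77e-06), and with the dim arrays set to the lowest signal still measurable it was at least 3.51-fold. On each of slides 1 to 5 WT was lower at 7 Gy, by -2.49 to -1.44.

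In KO-labelled blood the 4 samples at 0 Gy read between -4.79 and -4.10 with a median of -4.34, and the 9 at 7 Gy read between -6.23 and -4.78 with a median of -5.25. These groups touch: the highest array at 7 Gy lay just above the lowest sample at 0 Gy, and 6 of the 9 were still well above background. The fall was 1.94-fold (log2 -0.96 ± 0.24, adjusted p = 0.00245). At 7 Gy Uhrf1 therefore stood 2.59-fold higher in KO-labelled than in WT blood (log2 1.37 ± 0.23, adjusted p = 0.000167), at least 2.40-fold with the WT arrays at the measurable minimum, and the groups did not overlap. The difference of the 2 responses was 1.95-fold with adjusted p = 0.0665, so it missed the threshold. With the slide as a block and every array counted separately it was 1.22 on the log2 scale with adjusted p = 0.0108, and it had the same sign on all 5 slides, from 0.76 to 2.03. Without the 3 WT 7 Gy arrays high in hepatocyte markers the fall in WT was -1.66 (adjusted p = 0.00286) and the gap at 7 Gy was 1.11 (adjusted p = 0.0424).

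Markers of dividing cells and of B cells were also lower at 7 Gy in both genotypes. The summed level of 11 dividing-cell genes, led by Nusap1 and Ccnb2 and given as a multiple of the 75th percentile, spanned 1.86 to 2.28 in unirradiated and 0.375 to 0.856 in irradiated WT samples. In KO-labelled blood it spanned 2.73 to 3.21 before and 0.818 to 1.71 after 7 Gy. That of 12 B cell genes, led by Cd79b and Cd79a, ran from 7.14 to 8.20 in unirradiated WT samples and from 0.276 to 0.799 in irradiated ones. In KO-labelled blood it ran from 9.08 to 11.6 at 0 Gy and from 0.233 to 1.45 at 7 Gy. Between the genotypes at 7 Gy, 7 of the 11 dividing-cell genes were higher in KO-labelled blood and 0 lower. Of the 12 B cell genes 0 were higher and 1 lower, where 4.57% of all genes were higher and 17.9% lower. The part of these markers in the falls of Uhrf1 and the other genes was not tested, and in whole blood fewer cells of a type and less RNA per cell cannot be told apart.

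Dnmt1 fell in KO-labelled blood. It is measured by a probe whose 60 bases lie over 369 bases of mm9 at chr9:20711973-20712341 (minus strand), so that it crosses an intron and reads spliced RNA, and it is shown because it is the one kept probe of the 9 genes that does so.
Dnmt1 probe: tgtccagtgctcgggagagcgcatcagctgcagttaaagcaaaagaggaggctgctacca
The 4 KO-labelled samples at 0 Gy read -3.11, -3.09, -3.97 and -2.95, and the 9 at 7 Gy ran from -5.94 to -3.87 with a median of -4.54. Only the lowest sample at 0 Gy reached into the range of the irradiated arrays. The fall was 2.58-fold (log2 -1.37 ± 0.36, adjusted p = 0.00345), and on every slide that held both doses it was negative, from -1.97 to -0.87.

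In WT Dnmt1 read -5.33, -3.50, -3.46, -3.51 and -3.48 at 0 Gy and -4.32, -4.43, -4.80, -5.12 and -4.92 at 7 Gy. Of the arrays at 0 Gy 4 lay together above all irradiated arrays, and replicate 1 lay below all of them and was not well above background. With all arrays the difference was -0.86 ± 0.38 (adjusted p = 0.112). Without that 1 array it was -1.23 (adjusted p = 0.0112), so the call for Dnmt1 in WT depends on 1 array. Replicate 1 was also the array with the most variable repeat spots (16.6%). The difference of the 2 responses was -0.51 ± 0.53 (adjusted p = 0.534), and at 7 Gy the genotypes differed by 0.07 ± 0.34 (adjusted p = 0.912).

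Of the enzymes that set new methylation, Dnmt3a fell in KO-labelled blood and showed no call in WT. Its probe lies at chr12:3914320-3914379 (mm9, plus strand). The 4 KO-labelled samples at 0 Gy read -5.28, -6.25, -5.34 and -4.41. At 7 Gy the 5 arrays of slides 1 to 5 read from -8.25 to -6.68 and the 4 arrays of slide 6 from -6.36 to -5.19. So the slide 6 arrays all lay above the others of their group, within the range of the unirradiated samples or close to it, and 3 of the 9 were well above background.

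The fitted fall of Dnmt3a was 2.80-fold (log2 -1.48 ± 0.45, adjusted p = 0.00886). Slide 6 alone gave -0.55 (adjusted p = 0.228), quantile normalization gave -1.17 (adjusted p = 0.165), leaving out KO-labelled 0 Gy replicate 5 gave -1.18 (adjusted p = 0.0558), and within slides 1 to 5 the fall was between -2.73 and -1.89. In WT the level was -5.71 ± 0.32 (SD, n = 5) at 0 Gy and -5.78 ± 0.39 (SD, n = 5) at 7 Gy, a difference of -0.08 ± 0.47 (adjusted p = 0.943). The responses differed by -1.40 ± 0.65 with adjusted p = 0.141. With the slide as a block that difference was -2.16 (adjusted p = 0.0013), and Dnmt3a at 7 Gy was then also lower in KO-labelled blood, by -1.77 (adjusted p = 0.000171). Slide 6 holds no other group, so the block takes its 4 arrays out of these differences. Leaving those arrays out, with no block, likewise gave -2.16 and -1.77. In the 4 arrays of slide 6 slide and sample cannot be told apart.

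Dnmt3b was measured by 3 kept probes, and they did not move together. The brightest, A_55_P1975903 at chr2:153512098-153512157 (mm9, plus strand), stood for the gene: it read -4.11 ± 1.03 (SD, n = 4) in KO-labelled blood at 0 Gy and -3.59 ± 1.21 (SD, n = 9) at 7 Gy, a difference of 0.51 ± 0.55 (adjusted p = 0.468). A_55_P2130535 at chr2:153513403-153513462 read -4.89 ± 0.33 (SD, n = 4) at 0 Gy and -6.87 ± 0.91 (SD, n = 9) at 7 Gy and fell by 1.97 on the log2 scale (SE 0.39, adjusted p = 0.000265). Every irradiated KO-labelled array lay below every unirradiated sample on that probe, and 3 of the 9 were well above background.

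The remaining probe of Dnmt3b, A_55_P2008874, lay between these (-0.81 ± 0.35, adjusted p = 0.0668). In WT none of the 3 was called, with differences from -0.20 to 0.03. On A_55_P2130535 the difference of the responses was -1.82 ± 0.57 (adjusted p = 0.0352), and on the brightest probe it was 0.71 ± 0.79 (adjusted p = 0.567). The data therefore give no single direction for Dnmt3b. With the slide as a block the brightest probe was called the other way, higher at 7 Gy by 1.06 (adjusted p = 0.0143). With the arrays of slide 6 as the only KO-labelled 7 Gy arrays it gave -0.27 (adjusted p = 0.706).

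**Figure D2:**
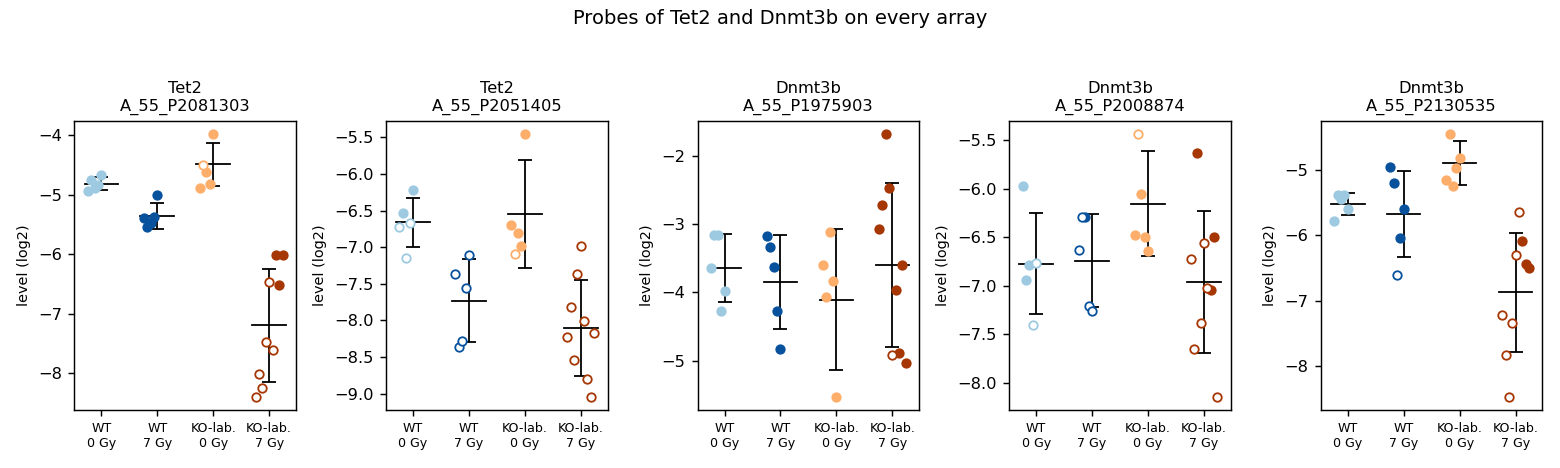
Level of the 2 kept probes of Tet2 and the 3 kept probes of Dnmt3b on every array (log2; filled points well above background; line and bars are the group mean and SD). The irradiated KO-labelled arrays lie low on both Tet2 probes and on A_55_P2130535 of Dnmt3b, and spread from -5.03 to -1.68 on A_55_P1975903.

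Mbd2, the methyl-CpG reader, showed no call in any comparison. It was well above background on all 24 arrays, with levels of -0.50 ± 0.34 (SD, n = 5) and -0.83 ± 0.22 (SD, n = 5) in WT at 0 and 7 Gy and of -0.85 ± 0.35 (SD, n = 4) and -0.71 ± 0.39 (SD, n = 9) in KO-labelled blood. Its differences ran from -0.34 ± 0.24 between the genotypes at 0 Gy to 0.45 ± 0.31 for the difference of the responses, with adjusted p of 0.331 to 0.739. A second probe of Mbd2 was not called either (adjusted p of 0.196 to 0.987), but it read -4.81 on WT 0 Gy replicate 1, -4.0 on KO-labelled 0 Gy replicate 3 and -3.89 on KO-labelled 7 Gy replicate 3, each the lowest of its group by more than 1 log2 unit. Dnmt1 was also lowest of its group on these 3 arrays. By Pearson correlation of the level over the 23 samples, the genes most like Mbd2 among 15710 were Rchy1 (0.826), Tmod3 (0.755) and Pdcd10 (0.741). This is a description over samples that share arrays and doses.

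Tet2 had the largest fall of the 9 genes in KO-labelled blood. Its probe A_55_P2081303 lies at chr3:133126751-133126810 (mm9, minus strand). The 4 KO-labelled samples at 0 Gy read -4.86, -4.51, -4.62 and -3.99, and the 9 at 7 Gy read -8.39, -8.01, -8.24, -7.47, -6.46, -7.61, -6.02, -6.52 and -6.01. The groups lay well apart, and at 7 Gy only replicates 7 to 9 were well above background. The fitted fall was 6.49-fold (log2 -2.70 ± 0.37, adjusted p = 4.59e-06), which rests in part on dim arrays. Within slides 1 to 5 it ran from -3.62 to -2.47, and the mean at 7 Gy was -7.71 on those slides and -6.54 on slide 6.

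In WT Tet2 read -4.94, -4.76, -4.89, -4.84 and -4.67 at 0 Gy and -5.39, -5.55, -5.48, -5.38 and -5.00 at 7 Gy. All irradiated WT arrays lay below all unirradiated ones and all were well above background, but the difference of -0.54 ± 0.39 was not called (1.45-fold, adjusted p = 0.367). With only the 2 WT groups in the fit, whose spread is small for this gene, the same difference had adjusted p = 0.00811. The responses differed by -2.16 ± 0.54 (adjusted p = 0.0116), and at 7 Gy Tet2 was 3.56-fold lower in KO-labelled blood (log2 -1.83 ± 0.34, adjusted p = 0.000575) with no overlap. On all 5 slides the difference of the responses was negative, from -3.04 to -2.10.

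The second kept probe of Tet2, A_55_P2051405, lies near the first at chr3:133126905-133126964 and is dimmer. Its fitted level fell in both genotypes: by 1.07 on the log2 scale in WT (SE 0.37, adjusted p = 0.0369) and by 1.56 in KO-labelled blood (SE 0.35, adjusted p = 0.000828). No array at 7 Gy of either genotype was well above background on that probe, and 2 of 5 WT and 4 of 5 KO-labelled arrays were at 0 Gy. Its fitted difference of the responses, -0.49 ± 0.50 (adjusted p = 0.535), therefore rests on signals not well above background in both irradiated groups. On the first probe 5 of 5 irradiated WT arrays and 3 of 9 irradiated KO-labelled arrays were well above background. The fall in WT was called on the second probe and not on the first (adjusted p = 0.367). Both probes of Tet2 were lower after 7 Gy in KO-labelled blood, and the difference of the responses was called on the first only. Without the 3 WT 7 Gy arrays high in hepatocyte markers, which leaves 2 irradiated WT arrays, the difference on the first probe was -2.05 with adjusted p = 0.0769, and with quantile normalization it was -2.11 with adjusted p = 0.0595.

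**Figure D3:**
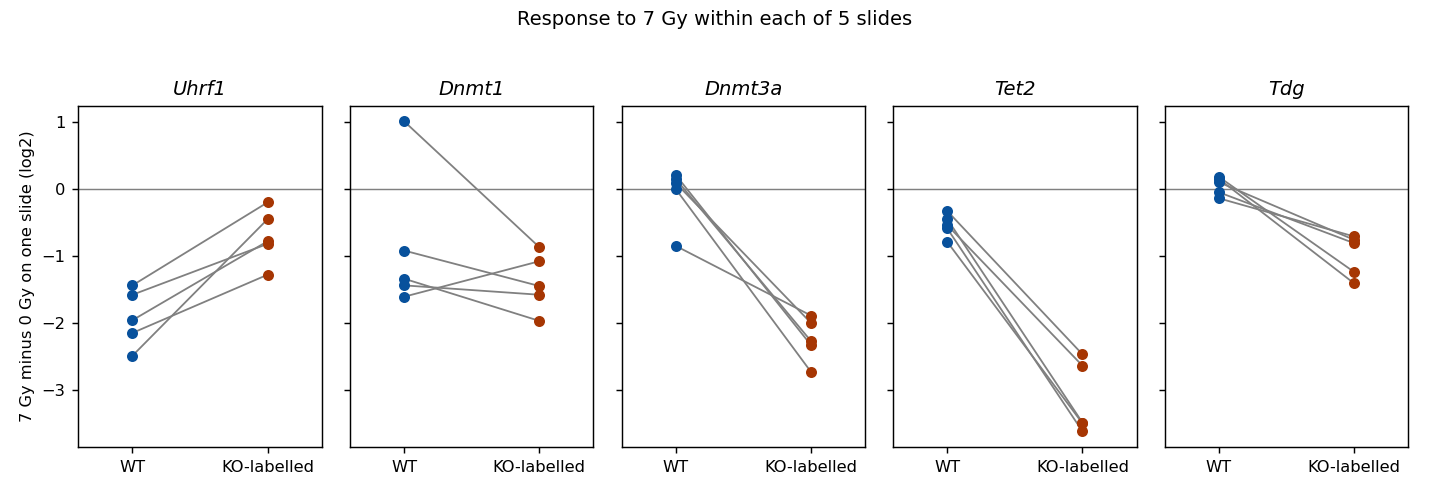
Difference between the 7 Gy and the 0 Gy array of one slide (vertical axis, log2) for WT and KO-labelled blood, with the values of one slide joined, on the 5 slides that held all groups. The lines of Tet2, Tdg and Dnmt3a run down from WT to KO-labelled on every slide and those of Uhrf1 run up.

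In the fit of all 4 groups without a slide block Tet1 and Tet3 showed no call. Tet1 read -3.80 ± 0.63 (SD, n = 5) and -4.75 ± 0.53 (SD, n = 5) in WT at 0 and 7 Gy, a 1.94-fold difference with adjusted p = 0.156, and it was lower at 7 Gy on all 5 slides, by -1.41 to -0.16. With only the 2 WT groups in the fit, the WT difference of Tet1 was called (-0.96, adjusted p = 0.0497). In KO-labelled blood the difference was 0.13 ± 0.45 (adjusted p = 0.832), and the responses differed by 1.09 ± 0.65 (adjusted p = 0.258). With the slide as a block the WT difference of Tet1 was -0.96 (adjusted p = 0.0228) and that of the responses 1.64 (adjusted p = 0.00845), positive on 4 of 5 slides. At 7 Gy Tet1 was then higher in KO-labelled than in WT blood by 0.96 (adjusted p = 0.0185), and it was higher there on all 5 slides, by 0.54 to 1.68. With the arrays of slide 6 as the only KO-labelled 7 Gy arrays that difference was -0.11 (adjusted p = 0.912). Of 3 probes of Tet1, 1 was kept, at chr10:62276042-62276101 (mm9, minus strand), and the other two were well above background on 0 and 1 of 24 arrays. The genes whose levels were most like those of Tet1 over the 23 samples were Xntrpc (0.957), Krtap5-5 (0.95), a hair keratin-associated protein, and Sycn (0.943), a protein of pancreatic secretory granules.

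Tet3, measured at chr6:83319720-83319779 (mm9, minus strand), read -5.64 ± 0.37 (SD, n = 5), -5.58 ± 0.40 (SD, n = 5), -5.52 ± 0.59 (SD, n = 4) and -5.49 ± 0.75 (SD, n = 9) in WT at 0 and 7 Gy and KO-labelled blood at 0 and 7 Gy. Its differences lay between -0.03 and 0.12 with adjusted p of 0.867 to 0.979. The standard errors of 0.32 to 0.50 were larger than these differences, so changes of this size were not detectable with these arrays.

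Tdg, the glycosylase that completes the removal, fell in KO-labelled blood and was not called in WT, and the difference of the responses was called. Its probe A_55_P2107398 lies at chr10:82112969-82113029 (mm9, plus strand). In WT it read -4.39, -4.86, -4.56, -4.79 and -4.58 at 0 Gy and -4.53, -4.70, -4.61, -4.61 and -4.48 at 7 Gy, and the groups lay on top of each other. In KO-labelled blood the 4 samples at 0 Gy read -4.64, -3.99, -4.77 and -4.28, and the 9 at 7 Gy ran from -6.22 to -4.95 with a median of -5.17. All 9 lay below all 4, and 7 of the 9 were well above background.

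The fall of Tdg was 1.95-fold (log2 -0.97 ± 0.22, adjusted p = 0.000916) in KO-labelled blood, against 0.05 ± 0.23 (adjusted p = 0.926) in WT. The responses differed by -1.02 ± 0.32 (adjusted p = 0.0343), with the same sign on all 5 slides (-1.56 to -0.58). At 7 Gy Tdg was 1.74-fold lower in KO-labelled than in WT blood (log2 -0.80 ± 0.20, adjusted p = 0.0063) with no overlap. The call on the difference of the responses was lost when any of 7 arrays was left out, with adjusted p up to 0.0829, and the direction stayed. Apart from leaving out single arrays, it was called in 5 of 17 other settings, and the gap at 7 Gy in 9 of 18. Median scaling gave -0.82 (adjusted p = 0.0711) and quantile normalization -0.73 (adjusted p = 0.229) for the difference of the responses. Without the 3 WT arrays high in hepatocyte markers it was -0.99 (adjusted p = 0.143), and the gap at 7 Gy was -0.77 (adjusted p = 0.135). A second kept probe, A_55_P2044091, was well above background on 8 of 24 arrays and gave -0.50 ± 0.49 (adjusted p = 0.419) in KO-labelled blood.

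The response of KO-labelled blood varied over all genes with the base composition of the probes, which the choice of genes did not use. A probe has 60 bases, and those of Dnmt3a and Tet2 hold 21 G or C, Tdg 26, Uhrf1 27 and Dnmt1 33, while those of Dnmt3b, Tet3 and Tet1, which did not fall, hold 32, 32 and 31. Among the 3 Dnmt3b probes the one that fell holds 23. Over all genes the median response of KO-labelled blood was -0.62 for the 4307 genes whose probe holds 22 G or C or fewer and 0.13 for the 2624 whose probe holds 31 or more. In WT the same medians were -0.14 and -0.01. Of the 9 genes, Dnmt1, which fell with 33, and Mbd2, which did not fall with 22, stood against that order.

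With every array centred within classes of probe composition, a setting chosen after the data were seen, Tet2 in KO-labelled blood gave -2.08 (adjusted p = 3.15e-05), Dnmt1 -1.34 (adjusted p = 0.0143), Uhrf1 -0.75 (adjusted p = 0.0185) and Tdg -0.55 (adjusted p = 0.0434). Dnmt3a was no longer called at -0.87 (adjusted p = 0.0983), and Mbd2 was called higher at 0.75 (adjusted p = 0.00677). The difference of the responses remained called for Tet2 (-1.67, adjusted p = 0.0299), was lost for Tdg (-0.60, adjusted p = 0.229) and was gained for Uhrf1 (1.23, adjusted p = 0.0314). Tdg at 7 Gy was then no longer called between the genotypes (-0.52, adjusted p = 0.0703). The part of probe composition in these falls was not tested beyond that setting.

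Of 50 other listed genes of DNA methylation and its removal, 41 were tested. In WT 1 rose and 12 fell at 7 Gy, where 10% of all genes rose and 13.6% fell. In KO-labelled blood 2 rose and 23 fell, where 12.3% of all genes rose and 34.6% fell. Over all genes, too, more fell than rose. The list had median differences of -0.37 and -0.83, where all genes had -0.05 and -0.26. Without the 3 WT arrays high in hepatocyte markers the WT counts were 0 and 6, with fewer samples. The share of all genes called was not counted under that setting, so these counts stand without a background. Mat2b, a subunit of the enzyme that makes the methyl donor, fell 3.69-fold in WT (adjusted p = 4.49e-08) and 4.17-fold in KO-labelled blood (adjusted p = 4.23e-09). Ogt, a sugar transferase that binds Tet proteins, fell 2.83-fold (adjusted p = 1.11e-07) and 3.93-fold (adjusted p = 8.15e-10). Gadd45a itself fell 3.64-fold in WT (adjusted p = 2.85e-07).

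Of the base excision repair genes, Apex1, the endonuclease that follows a glycosylase, fell 2.89-fold in WT (adjusted p = 0.00904) and 4.54-fold in KO-labelled blood (adjusted p = 0.000105), and Parp1, which senses strand breaks, fell 3.41-fold (adjusted p = 0.0215) and 9.54-fold (adjusted p = 2.80e-05). Cxxc5, a CpG-binding zinc finger protein, fell 3.46-fold in WT (adjusted p = 0.00168) and 4.57-fold in KO-labelled blood (adjusted p = 5.45e-05). Of the 9 irradiated KO-labelled arrays 3 were well above background for each of Apex1, Parp1 and Cxxc5. Cdca7, which acts with the remodeller Hells on methylation, fell 6.15-fold in KO-labelled blood (adjusted p = 2.88e-08), and since no irradiated KO-labelled array was well above background this is at least 2.33-fold. The 2 that rose in KO-labelled blood were Idh1, which makes the Tet cofactor 2-oxoglutarate (2.26-fold, adjusted p = 0.0197), and Gadd45g (1.97-fold, adjusted p = 0.00198).

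Ahcy, which clears S-adenosylhomocysteine and is abundant in liver, was the 1 gene that rose in WT, 5.60-fold (adjusted p = 0.000393). Its level in WT at 7 Gy was -3.07 ± 1.62 (SD, n = 5), and without the 3 arrays high in hepatocyte markers the difference was 0.72 (adjusted p = 0.071), so the call rests on those arrays. The summed level of 16 hepatocyte genes, led by Trf and Apoa2, spanned 1.06 to 1.55 in unirradiated and 8.13 to 120 in irradiated WT samples, and 0.771 to 4.51 and then 4.68 to 9.04 in KO-labelled ones. The part of this signal in the other differences between the genotypes was not tested beyond leaving those arrays out.

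Between the genotypes at 7 Gy 2 of the 41 other genes were higher in KO-labelled blood and 11 lower, where 4.57% of all genes were higher and 17.9% lower. The difference of the responses was called for 1 gene toward higher (Gadd45a, 2.57-fold, adjusted p = 0.00376) and 5 toward lower, where 3.16% and 12% of all genes were, so these counts lie near the background. The 5 were Ahcy, Cdca7, Cxxc1, Neil1 and Mbd6, with differences of -2.51, -1.32, -1.24, -1.15 and -0.78. Neil1, a glycosylase that works beside Tdg, was the 1 of these that was still called without the 3 WT arrays high in hepatocyte markers (-1.46, adjusted p = 0.0401). Gadd45a was also still called (1.11, adjusted p = 0.0427). At 7 Gy Gadd45b, a paralog of Gadd45a, was 2.76-fold lower in KO-labelled blood (adjusted p = 0.000377). Without those arrays its difference was -0.68 (adjusted p = 0.165). At 0 Gy limma called 0 of the 41 between the genotypes.

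**Figure D4:**
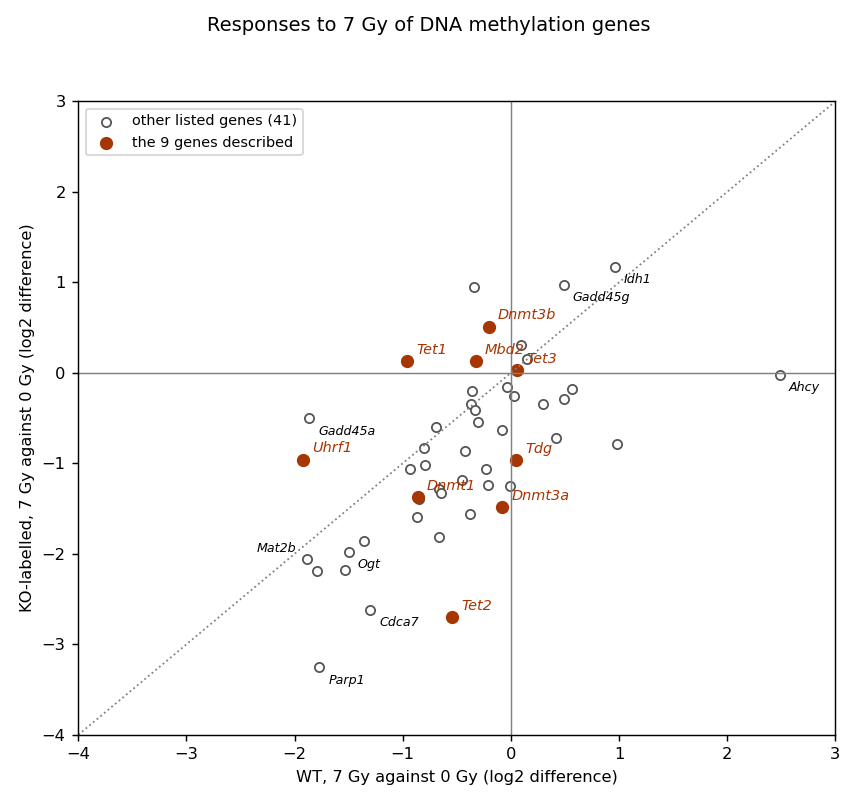
Response to 7 Gy in WT (horizontal axis, log2) against that in KO-labelled blood (vertical axis, log2) for the 9 genes (filled) and the 41 other listed genes (open); the dotted line marks equal responses. Tet2, Tdg and Dnmt3a lie below the dotted line and Uhrf1 lies above it beside Gadd45a.

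Markers of neutrophils and of NK cells differed between the genotypes at 7 Gy. Of 12 neutrophil genes 1 was higher and 9 were lower in KO-labelled than in WT blood, and of 9 NK cell genes 0 were higher and 7 lower. Of all genes 4.57% were higher and 17.9% lower there. The summed level of 12 neutrophil genes, led by S100a9 and S100a8, spanned 84.8 to 114 in unirradiated and 52.4 to 168 in irradiated WT samples. In KO-labelled samples it spanned 23.1 to 62.5 before and 13.3 to 40.9 after 7 Gy. That of the NK cell genes, led by Gzma and Il2rb, spanned 2.2 to 2.66 and then 3.8 to 7.38 in WT samples, and 2.80 to 5.03 and then 1.60 to 3.28 in KO-labelled ones. For both lists WT lay above KO-labelled blood at 7 Gy with no overlap, as for Tet2 and Tdg, and the part of these cells in that difference was not tested. At 0 Gy the sums did not overlap either, with WT above KO-labelled blood for neutrophil genes and below it for NK cell genes. Tet2 and Tdg overlapped between the genotypes at 0 Gy, so the likeness holds at 7 Gy only. T cell genes (13, led by Cd3e and Lck) ran from 4.64 to 8.22 in WT at 7 Gy and from 2.35 to 6.89 in KO-labelled blood at 7 Gy, and those groups overlapped. The sums of erythroid genes (12, led by Hba-a1 and Alas2) and of platelet genes (10, led by Pf4 and Gp9) also overlapped between the genotypes at 7 Gy. Gene by gene, 6 of the 12 erythroid genes were called higher in KO-labelled blood at 7 Gy and 0 lower. Of the 10 platelet genes 1 was higher and 0 lower, and of the 13 T cell genes 0 were higher and 5 lower. With radiation, 7 of the 10 platelet genes rose in WT and 9 in KO-labelled blood.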

How the data were processed

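RNA was measured on 24 one-colour arrays; the authors deposited spot intensity from Agilent Feature Extraction 12.0.2, per the file headers background-subtracted and unscaled between arrays, with mm9 probe positions. The deposited value table holds log2 values (12900 entries), per the file's values the log2 of the same signal plus a constant per array. The members and gene lists were chosen with earlier results of these data known. Spots marked as outliers were left out, repeat spots averaged, and each array scaled to its 75th percentile over 7797 probes well above background on all arrays. Only probes well above background on 5 or more arrays entered the fit, and the brightest stood for a gene (rule for named genes: all members; up to 6 called listed genes each way; the 3 most alike). Near-identical arrays were averaged. One limma 3.58.1 model over 4 groups (R 4.3.3) gave moderated tests with Benjamini-Hochberg adjustment over 15784 genes. Tested on simulated data of the KO-labelled response over 15710 genes, it called 44% of 100 genes changed by 1 log2 unit and 83% of 100 changed by 2. In the data 46.9% of all genes were called in that comparison, and the adjustment depends on that share. The simulated shares therefore need not hold for the data. Probes were named by accession or symbol through RefSeq (GRCm38.p6), and positions in genes were not analysed here. The number of arrays limits the precision. Between 25.7% and 50.9% of probes stood well above background on an array. Alternatives and their effect are given in the closing section.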

Additional observations from a re-analysis of the deposited data

Results flagged for a closer look

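In WT at 0 Gy the level of Dnmt1 on replicate 1 was -5.33, where the nearest other array read -3.51, and its gap exceeded Dixon's limit for 5 samples. KO-labelled 0 Gy replicate 3 was likewise low for Dnmt1 at -3.97, with the nearest sample at -3.11. Mbd2 was high on WT 0 Gy replicate 1 at 0.10, with the nearest array at -0.61. Of 36 such tests 3 passed the limit, and chance passes about 1 in 20. The response to 7 Gy differed between KO-labelled and WT blood for Tet2 (-2.16, adjusted p = 0.0116) and for Tdg (-1.02, adjusted p = 0.0343) in limma.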

How the results depend on the processing

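Counts of the 9 genes called are given against 1 in WT, 5 in KO-labelled blood, 2 for the difference of the responses, 0 at 0 Gy and 3 at 7 Gy. For most of these settings the share of all genes called was not counted, so a changed count may hold for all genes as well. Normexp gave 0 in all comparisons and turned Uhrf1 in WT (0.40), Tdg (0.29), Uhrf1 (0.21), Tet2 (0.08) and Dnmt3a (0.40) in KO-labelled blood, and Uhrf1 at 7 Gy (-0.05). Over all genes normexp called 0% for the difference and 1.45% at 7 Gy. Only probes well above background on all arrays left 2 of the 9 genes and gave 0. The mean of a gene's probes gave 2 in WT and 1 for the difference, and turned Dnmt3b in KO-labelled blood (-0.76). The authors' value table gave 0 for the difference and 1 at 7 Gy, where 3.49% and 12.5% of its 12858 genes were called. It turned Tdg in KO-labelled blood (0.16) and at 7 Gy (0.10), through another probe. The difference gave 1 with quantile normalization, no filter on dim probes or slide 6 alone, 0 without the 3 arrays high in hepatocyte markers or with arrays alike by the robust ratio averaged, and 4 without slide 6. Median scaling and the 75th percentile over all probes kept 2 for the difference, with Uhrf1 called in place of Tdg, where 12.2% and 9.32% of all genes were called. Leaving out arrays with variable repeat spots gave 2 in WT and 1 for the difference, and fitting only the groups compared gave 3 in WT. Counting every array separately gave 3 for the difference, and doing so with the slide block gave 2 in WT, 5 for the difference and 5 at 7 Gy. The replicate block, with every array counted separately, gave 2, 6 and 6 there and 7 in KO-labelled blood. Both blocks rest on slides 1 to 5, since KO-labelled 7 Gy replicates 6 to 9 have no partner in another group. Replicates 1 to 5 of every group share slides 1 to 5, so the replicate block is tied to the slide. No label ties the numbers to an animal or litter, and same-numbered arrays correlated from -0.394 to 0.729, over 0.1 in 20 of 30 pairs. Leaving out each array in turn gave 1 to 2 in WT, 4 to 5 in KO-labelled blood, 1 to 3 for the difference, 0 at 0 Gy and 3 to 4 at 7 Gy. Dim signals limit Uhrf1, Tet2 and Dnmt3a at 7 Gy.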
